A study of Rattus norvegicus with 11 samples.

Results

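RT1-A1 (ENSRNOG00000038999) and RT1-A2 (ENSRNOG00000030712) are the 2 genes of the rat class Ia locus RT1-A that have a symbol in the tables used here, and they make up 2 of the 32883 genes counted in the corpora quadrigemina of 11 rats. Both were chosen by their counts: the rule took their rows, their level as CPM (reads of a gene scaled to all assigned reads of the library, adjusted by TMM factors) and the share of RT1-A1 in their sum, with the strain pattern of these values already known. Their levels and fold changes are therefore given as a description, without a test.

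The tissue held the inferior and superior colliculi of male rats aged 4 months, and each rat gave 1 poly(A) RNA library. The KM group (n = 3, labelled prone to audiogenic epilepsy) is the inbred Krushinsky-Molodkina strain, which was selected from Wistar rats for seizures provoked by sound. The “0” group (n = 4, titled O and labelled less prone) was selected for the lack of these seizures from hybrids of KM and Wistar rats, with some backcrosses to KM. The W group (n = 4, labelled wild type) was outbred Wistar, and the labels give the strain of all 11 rats as wistar.

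All rats had heard the test sound 4 days before they were killed, and neither the W nor the “0” rats used in the study responded with seizures. KM rats had been tested once at 3 months of age and “0” rats 3 times. Strain, seizure proneness and test history cannot be told apart in these groups. The haplotype of the major histocompatibility complex was not given for any of the strains in the sources used here.

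Class I molecules present peptides from the inside of the cell to CD8 T cells and natural killer cells. Each consists of a highly polymorphic heavy chain, such as those encoded by RT1-A1 and RT1-A2, bound to beta-2 microglobulin and a peptide that the Tap1 and Tap2 transporter brings into the endoplasmic reticulum. Rat haplotypes differ in the number and the alleles of the class I genes they carry. In the brain class I is expressed at low levels in the resting state, mostly by endothelial cells and microglia, is induced by interferon, and has been given roles in synapse development and plasticity in neurons.

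The promoter regions of both genes are shown because class I genes share a compact control region, with a kappaB site (enhancer A) followed by an interferon-stimulated element, and because the letters show how near the genes are to each other. The sequences are those of RefSeq, build GRCr8, from 250 bases before to 50 bases after the start of the gene, both on the plus strand. RT1-A1 covers chr20:4906959-4907258 and RT1-A2 covers chr20:4872621-4872920. Capitals mark the kappaB site GGGATTCCC, the interferon element TTTCACTTC and the CCAAT box on either strand (ATTGG on the minus strand).
RT1-A1: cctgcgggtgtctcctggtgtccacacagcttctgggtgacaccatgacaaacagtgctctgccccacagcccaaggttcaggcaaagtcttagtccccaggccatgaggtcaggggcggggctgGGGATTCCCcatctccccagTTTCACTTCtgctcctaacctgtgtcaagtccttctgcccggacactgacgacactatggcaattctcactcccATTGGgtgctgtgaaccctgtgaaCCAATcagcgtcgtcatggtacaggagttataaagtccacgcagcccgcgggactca
RT1-A2: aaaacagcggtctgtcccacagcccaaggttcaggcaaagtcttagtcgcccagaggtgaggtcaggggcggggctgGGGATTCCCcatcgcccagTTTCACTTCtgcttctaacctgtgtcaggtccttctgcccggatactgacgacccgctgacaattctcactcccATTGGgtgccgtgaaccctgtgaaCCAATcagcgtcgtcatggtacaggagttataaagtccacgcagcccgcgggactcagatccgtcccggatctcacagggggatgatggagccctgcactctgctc

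A local alignment of the 2 windows held 251 columns, of which 232 were identical, 18 were mismatches and 1 was a gap (92.4% identity). Both windows held 1 kappaB site and 1 interferon element. The kappaB site began 125 bases before the annotated start in RT1-A1 and 173 before it in RT1-A2, and the interferon element began 105 and 154 bases before it. The stretch from the first to the last base of these elements is set beside that of RT1-A3, the remaining RT1-A gene of RefSeq, for which no symbol was paired with the counts.
RT1-A1: GGGATTCCCcatctccccagTTTCACTTC
RT1-A2: GGGATTCCCcatcgcccagTTTCACTTC
RT1-A3: GGGATTCCCcatctccccagTTTCACTTC

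These stretches lie at chr20:4907084-4907112, chr20:4872698-4872725 and chr20:4849282-4849310 (GRCr8, plus strand). The stretch of RT1-A1 was the same as that of RT1-A3 over 29 bases and that of RT1-A2 was 28 bases long. Searched on both strands in the 33469 RefSeq promoter windows of the same length, GGGATTCCC was present in 0.365% and TTTCACTTC in 0.469%. Of the 33 windows of class I genes, 8 held the first and 11 the second. CCAAT was present in 37.5% of all windows and in 22 of the 33 class I windows, and TGACG, the core of the cyclic AMP response element, of which both genes held 2, in 21.2% of all windows and in 9 of the 33. TATAAA occurred once in each gene, from 22 bases after the annotated start in RT1-A1 and from 28 bases before it in RT1-A2, in 14.2% of all windows and in 9 of the 33. The sequences come from the reference strain, and those of KM, “0” and W rats were not analysed here.

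RT1-A1 was high in KM and “0” rats and several times lower in W rats. The RT1-A1 level was 89.2, 103 and 108 CPM in KM 1 to KM 3, from 1101, 1222 and 1818 counts. In “0” 1 to “0” 4 the RT1-A1 level was 83.8, 92.3, 105 and 106 CPM, from 1054, 974, 950 and 1628 counts. In W 1 to W 4 the RT1-A1 level was 23.0, 10.3, 23.4 and 16.2 CPM, from 287, 135, 273 and 172 counts. Every KM and “0” rat lay above every W rat, and the KM and “0” rats overlapped.

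The mean RT1-A1 level was 100 ± 9.73 CPM in KM (SD, n = 3), 96.7 ± 10.5 in “0” (SD, n = 4) and 18.2 ± 6.22 in W (SD, n = 4). The mean of KM was 5.49 times and that of “0” 5.30 times the mean of W, whereas KM was 1.04 times “0”. The fitted log2-fold change of RT1-A1 was 2.46 (SE 0.26) for KM vs W, 2.40 (SE 0.24) for “0” vs W and 0.06 (SE 0.14) for KM vs “0”. Among the W rats the highest level was 2.26 times the lowest, against 1.21 times in KM and 1.26 times in “0”.

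RT1-A2 had the opposite order. The RT1-A2 level was 3.73, 3.89 and 4.63 CPM in KM 1 to KM 3, from 46, 46 and 78 counts. In “0” 1 to “0” 4 the RT1-A2 level was 5.09, 4.83, 5.84 and 3.45 CPM, from 64, 51, 53 and 53 counts. In W 1 to W 4 the RT1-A2 level was 24.7, 22.7, 28.5 and 14.6 CPM, from 308, 297, 332 and 155 counts. Every W rat lay above every KM and “0” rat, the lowest of the W rats being W 4 and the highest of the others “0” 3.

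The mean RT1-A2 level was 4.08 ± 0.481 CPM in KM (SD, n = 3), 4.80 ± 1.0 in “0” (SD, n = 4) and 22.6 ± 5.85 in W (SD, n = 4). The mean of W was 5.54 times that of KM and 4.71 times that of “0”. On the log2 scale the fitted change of RT1-A2 was -2.46 (SE 0.25) for KM vs W, -2.25 (SE 0.24) for “0” vs W and -0.22 (SE 0.26) for KM vs “0”. In all rats the RT1-A2 counts were above the 3 counts taken as the floor, which amount to between 0.178 and 0.331 CPM in these libraries, and the floor covers counting error only.

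**Figure D1:**
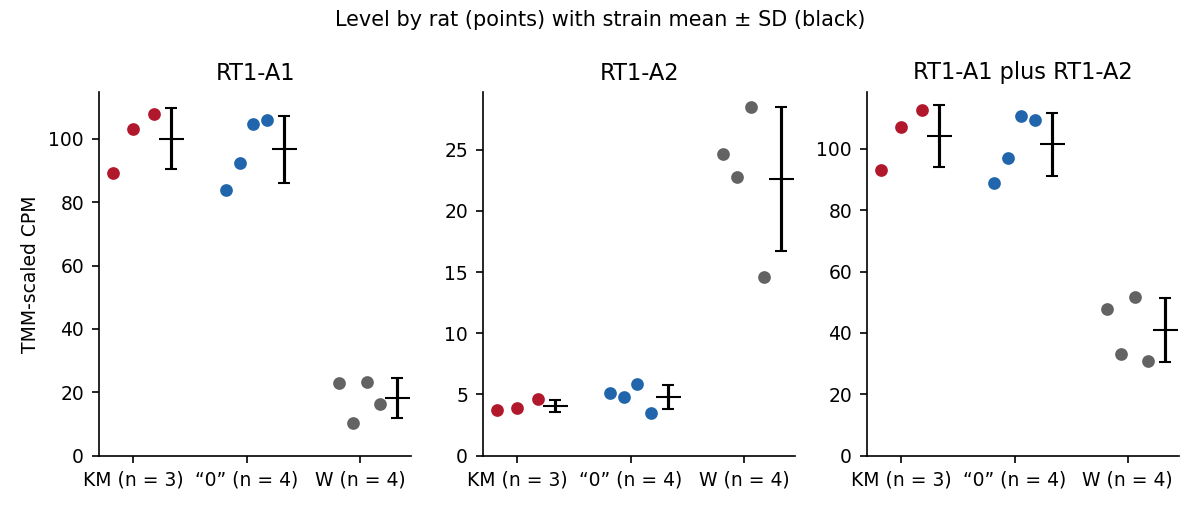
TMM-scaled CPM (vertical axes, from 0) of RT1-A1, RT1-A2 and their sum in each rat (points) of the KM, “0” and W strains, with the strain mean ± SD in black. RT1-A1 sits at 83.8 CPM or more in KM and “0” rats and at 23.4 or less in W rats, while RT1-A2 sits at 5.84 or less in KM and “0” rats and at 14.6 or more in W rats.

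The shift in RT1-A1 was larger than that in RT1-A2 in CPM, so that the sum of both also differed between the strains. The summed level ranged from 92.9 to 113 CPM in KM, from 88.9 to 111 CPM in “0” and from 30.8 to 51.9 CPM in W. Its mean in KM was 2.55 times and in “0” 2.48 times that in W. No W rat reached the sum of any KM or “0” rat.

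RT1-A1 thus made up nearly all of the pair's counts in KM and “0” rats, while both genes gave counts of the same order in W rats. The RT1-A1 share was 96.0%, 96.4% and 95.9% in KM 1 to KM 3, with a mean of 96.1% ± 0.256 (SD, n = 3). In “0” 1 to “0” 4 the RT1-A1 share was 94.3%, 95.02%, 94.7% and 96.8%, with a mean of 95.2% ± 1.13 (SD, n = 4). In W 1 to W 4 the RT1-A1 share was 48.2%, 31.2%, 45.1% and 52.6%, with a mean of 44.3% ± 9.23 (SD, n = 4). The ratio of RT1-A1 to RT1-A2 averaged 24.6 in KM, 21.1 in “0” and 0.830 in W.

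The 95% Wilson interval of the share, which covers counting error only, ran from 27.1% to 35.8% in W 2 and from 47.2% to 57.9% in W 4, so these W rats differed by more than counting error. In KM and “0” rats the intervals lay between 92.8% and 97.6%. The interval ended at 95.5% in “0” 1 and began at 95.9% in “0” 4, so these “0” rats also differed by more than counting error. The RefSeq gene spans of RT1-A1 and RT1-A2 are 3660 and 3706 bases (GRCr8), and dividing by them moved the mean share in W from 44.3% to 44.6%. Lengths of the counted exons were not used here, so a share describes reads and not molecules.

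**Figure D2:**
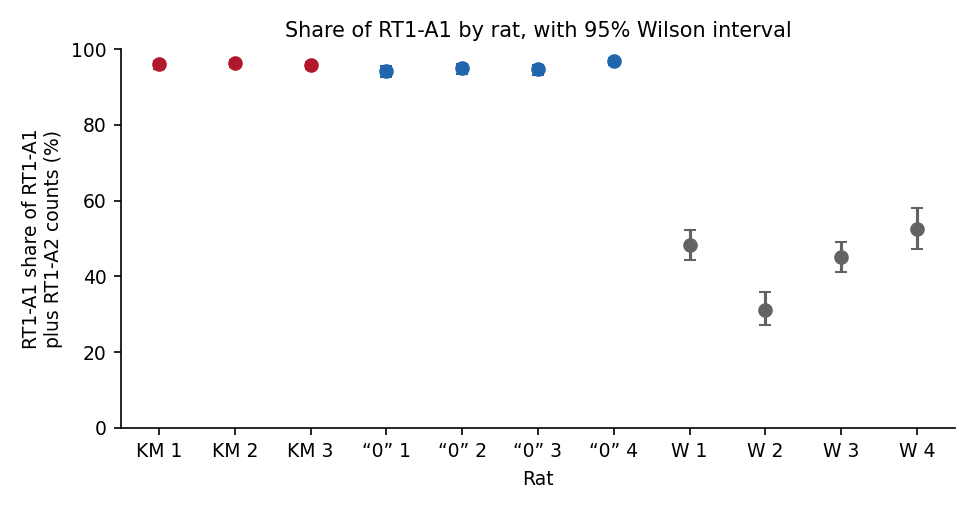
Share of RT1-A1 in the counts of RT1-A1 plus RT1-A2 (vertical axis, percent, from 0 to 100) in each of the 11 rats, with 95% Wilson intervals as bars. The KM and “0” rats lie between 94.3% and 96.8% and the W rats between 31.2% and 52.6%.

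Reads of class I genes are hard to place, because the genes are near copies of each other, and the values of RT1-A1 and RT1-A2 are uncertain to that extent. The reads were mapped to Rnor_6.0, the genome of the Brown Norway strain, and the class I alleles of KM, “0” and W rats were not analysed here. Ambiguous reads amounted to between 1.44% and 2.36% of the total per rat, and reads on several places were recorded as 0 in all rats. What part the counting of near copies and of other alleles has in the opposite values of RT1-A1 and RT1-A2 was not tested.

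Depth overlapped between the strains. Assigned reads ranged from 10545964 to 15140180 per rat, with a median of 11861682, and the 10 most abundant genes held between 7.94% of them (KM 3) and 29.2% (“0” 3). “0” 4, at 7.95%, was close to KM 3 in this share, and the next lowest rat was W 1 at 13.9%. Choroid plexus markers, of which 7 of 10 had a symbol, stood apart in KM 3, where they summed to 7072 CPM against a KM median of 68.9, and 7 of the 7 were higher in KM vs “0” and 5 in KM vs W at an unadjusted p under 0.05, beside 2.37% and 5.58% of all genes tested. Without KM 3 the log2-fold change for KM vs W was 2.42 for RT1-A1 and -2.55 for RT1-A2.

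The other class I genes were examined next. Of these, 8 had a symbol: RT1-CE4 and RT1-CE5, the class Ib gene RT1-M3-1, RT1-T24-1, RT1-T24-3 and RT1-T24-4, and AABR07044364.1 and LOC103690108. The last 2 lack an RT1 symbol and were taken because their descriptions name a class I histocompatibility antigen. Their names come from a table of the study that lists nearly only genes it found to differ, so counts of calls among them, and among the named members of every list below, are not independent evidence. In sum they measured 98.1 to 103 CPM in KM, 68.8 to 99.2 CPM in “0” and 51.4 to 88.2 CPM in W. The ranges of KM and W did not overlap for this sum, whereas those of “0” and W did.

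With RT1-A1 and RT1-A2 included, the 10 class I genes averaged 204 ± 11.8 CPM in KM (SD, n = 3), 185 ± 24.9 in “0” (SD, n = 4) and 108 ± 24.6 in W (SD, n = 4). RT1-A1 alone gave 46.5% to 50.3% of the class I counts in KM, 50.8% to 54.3% in “0” and 12.2% to 20.4% in W.

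**Figure D3:**
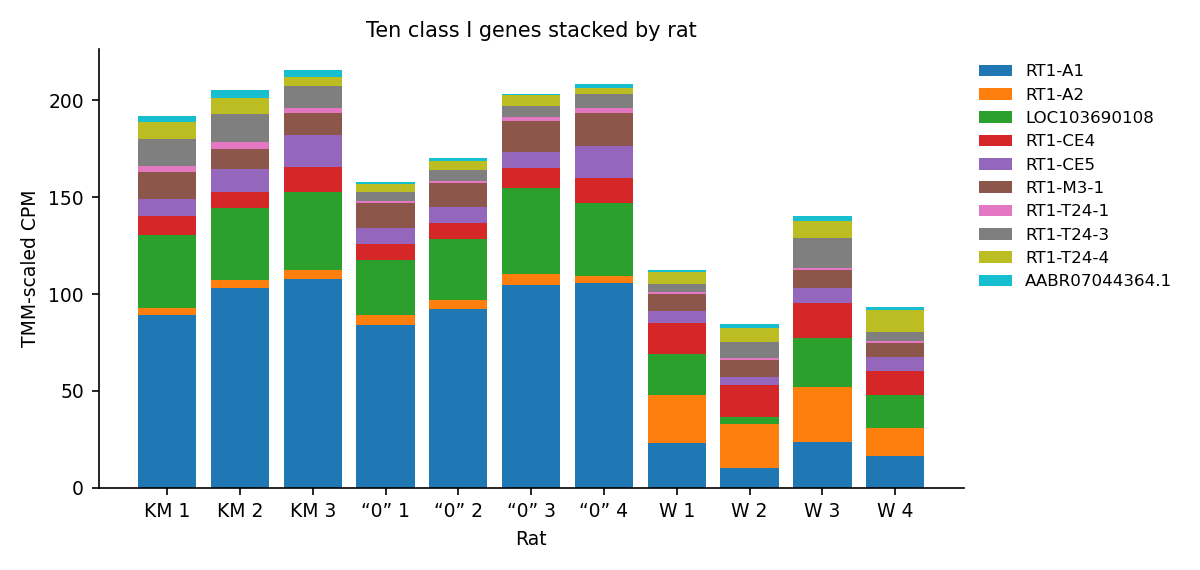
TMM-scaled CPM of 10 class I genes stacked for each rat (vertical axis, from 0), not divided by gene length. The RT1-A1 block (bottom) is the tallest in all KM and “0” rats, and the RT1-A2 block above it is at least 14.6 CPM in W rats, where the whole column reaches at most 140 CPM against at least 158 CPM in the other rats.

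LOC103690108, described as a non-RT1.A class I alpha-1 chain, followed RT1-A1 most closely. The LOC103690108 level was 37.4, 37.4 and 40.3 CPM in KM 1 to KM 3 and 28.7, 31.0, 44.3 and 37.5 CPM in “0” 1 to “0” 4. In W 1 to W 4 the LOC103690108 level was 21.3, 3.44, 25.5 and 17.0 CPM. W 2 was the lowest rat for LOC103690108, for RT1-A1 and for RT1-CE5 (4.06 CPM), but not for RT1-A2, where its 22.7 CPM was near the W median of 23.7.

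After the strain means were subtracted, the deviations of LOC103690108 and RT1-A1 over the 11 rats had a Pearson r of 0.94 on the log2 scale, and 0.84 without W 2. The same measure was 0.62 for RT1-CE5 and RT1-A1, falling to 0.36 without W 2, and 0.25 for RT1-A2 and RT1-A1. With RT1-A1 it was 0.30 for RT1-CE4 and 0.39 for RT1-T24-1, and 0.76 and 0.69 without W 2, where RT1-T24-4 had -0.51. These correlations describe the same 11 libraries, share their scaling and, for near copies, may share reads.

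**Figure D4:**
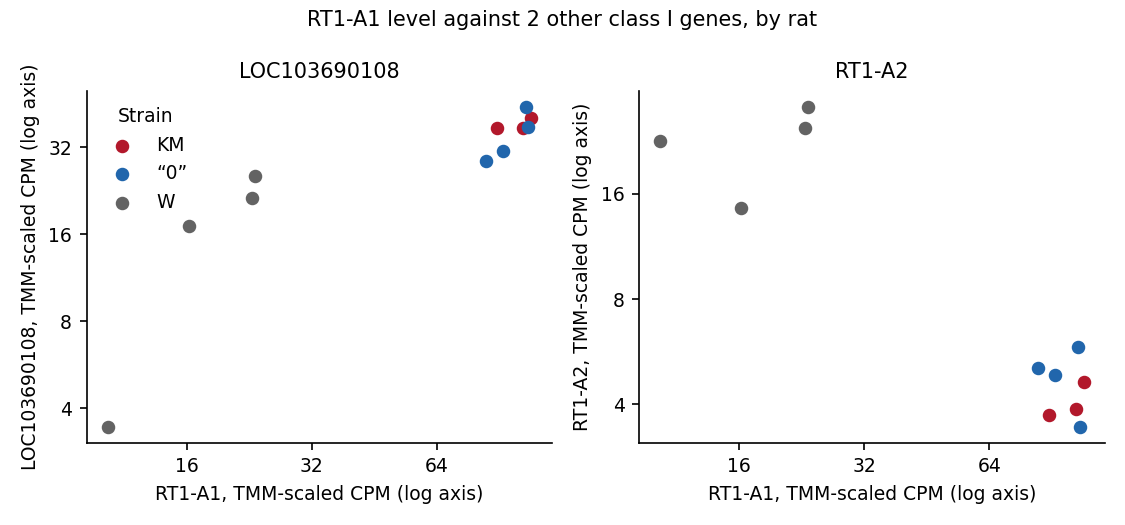
TMM-scaled CPM of LOC103690108 (left) and RT1-A2 (right) against that of RT1-A1, each on log axes, 1 point per rat coloured by strain. Among the W rats W 2 is lowest in both RT1-A1 and LOC103690108 (3.44 CPM) and W 3 highest (25.5 CPM), while RT1-A2 is high in the W rats at every RT1-A1 level.

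In KM vs W, 5 of the 8 other class I genes were higher and 1 was lower at an unadjusted p under 0.05 in edgeR's quasi-likelihood F-test, where 5.58% of the 13721 genes tested were higher and 5.33% lower. RT1-T24-1 rose by 1.77 on the log2 scale (SE 0.28), LOC103690108 by 1.20 (SE 0.50), RT1-CE5 by 0.97 (SE 0.28), AABR07044364.1 by 0.96 (SE 0.31) and RT1-M3-1, whose product presents formylated peptides, by 0.47 (SE 0.18). RT1-CE4 fell by 0.63 (SE 0.20) and so changed in the direction of RT1-A2. The median log2-fold change of the 8 genes was 0.84, against 0.01 over all genes tested, which were not chosen for differing. None of the 8 had an adjusted p under 0.05, which 0.0656% of all genes had. Without KM 2 the number called dropped from 6 to 3, and without KM 3, which stood apart in choroid plexus markers, it was 5.

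In 5 of the 8 genes the KM and W rats did not overlap, as in 11.6% of all genes. The call of LOC103690108 was lost when any of 5 single rats was left out, and without W 2 its change was 0.86. RT1-T24-1 was at 0.66 to 1.11 CPM in W, from 7 to 13 counts per rat, and at 2.61 to 3.21 CPM in KM.

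In “0” vs W, 3 of the 8 genes were higher and 2 were lower, where 3.26% of the 13630 genes tested were higher in “0” and 3.43% lower. LOC103690108 rose by 1.07 (SE 0.45), RT1-T24-1 by 0.91 (SE 0.36) and RT1-M3-1 by 0.75 (SE 0.17) on the log2 scale. RT1-T24-4 fell by 0.92 (SE 0.25) and RT1-CE4 by 0.67 (SE 0.19). No adjusted p of these was under 0.05, a level that 0.11% of all genes reached, and in 3 of the 8 the strains did not overlap, as in 4.32% of all genes. The number called was 3 without “0” 4, and 3 without W 4.

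RT1-M3-1 was at 12.5 to 17.1 CPM in “0” and at 7.35 to 9.26 CPM in W. RT1-CE4 was lower than in W in both other strains, with means of 10.2 ± 2.12 CPM in KM (SD, n = 3), 9.93 ± 2.19 in “0” (SD, n = 4) and 15.8 ± 2.42 in W (SD, n = 4). The KM vs W and “0” vs W comparisons share the W rats.

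KM and “0” rats, whose ranges overlapped in RT1-A1 and RT1-A2, were also compared in the other class I genes. In KM vs “0”, 4 of the 8 were higher in KM and 0 lower, where 2.37% of the 13686 genes tested were higher and 1.29% lower. AABR07044364.1 rose by 1.29 (SE 0.38), RT1-T24-3 by 1.22 (SE 0.22), RT1-T24-1 by 0.85 (SE 0.36) and RT1-T24-4 by 0.74 (SE 0.30) on the log2 scale. No adjusted p was under 0.05 for these genes, as for all but 0.0146% of genes, and in 3 of the 8 the strains did not overlap, against 4.63% of all genes. The number called was 2 without KM 1, KM 2, “0” 1 or “0” 2.

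RT1-T24-3 was at 13.9, 14.8 and 11.2 CPM in KM 1 to KM 3 and at 4.61, 5.50, 5.51 and 7.22 CPM in “0” 1 to “0” 4. In W 1 to W 4 its level was 4.17, 8.19, 15.3 and 4.71 CPM, so that W rats spread over the range of both other strains. RT1-T24 genes are also near copies of each other, and the reads between them could be split in counting.

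**Figure D5:**
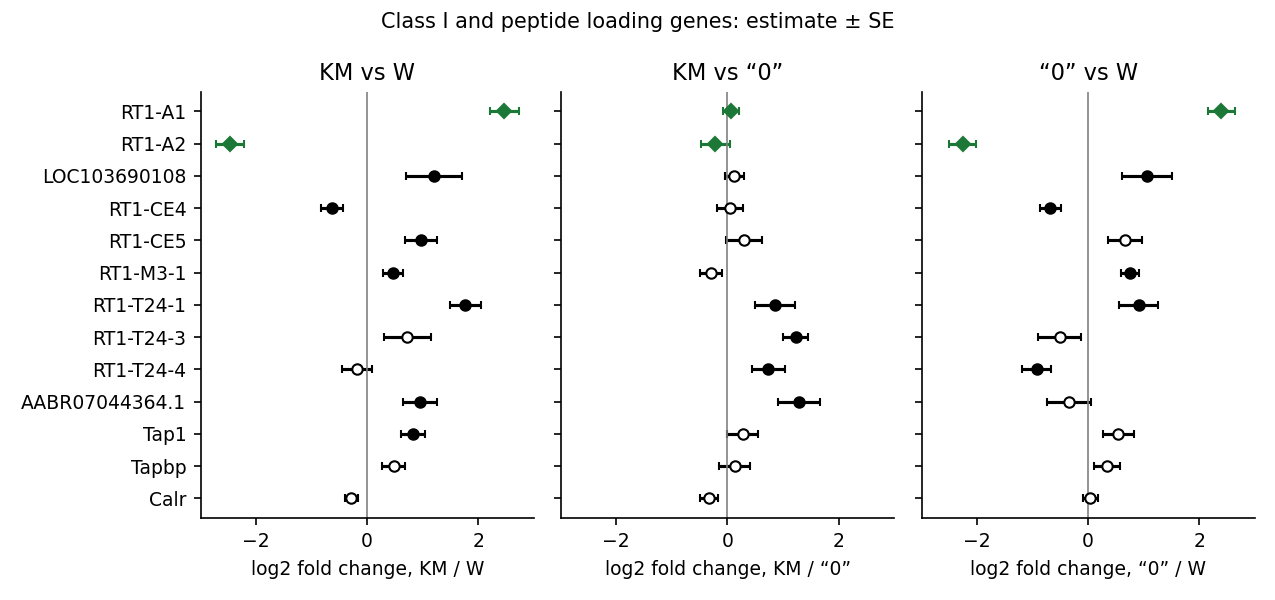
Fitted log2-fold change (horizontal axis) ± SE of 10 class I genes and 3 peptide loading genes, with 1 panel per pair of strains. Green diamonds are RT1-A1 and RT1-A2, given without a test, filled circles are genes with an unadjusted p under 0.05 and open circles the others. RT1-A1 and RT1-A2 lie at 2.46 and -2.46 in KM vs W and near 0 in KM vs “0”.

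Of 18 genes of peptide processing and loading, 3 had a symbol. Tap1, a subunit of the peptide transporter, was at 10.1, 11.1 and 13.5 CPM in KM 1 to KM 3 and at 6.33, 4.90, 8.57 and 6.31 CPM in W 1 to W 4. It rose by 0.83 (SE 0.22) in KM vs W, and was the only one of the 3 called there. Of all genes tested in KM vs W, 5.58% were called higher and 5.33% lower. In “0” 1 to “0” 4 Tap1 was at 6.12, 10.6, 8.05 and 13.5 CPM, which overlapped both other strains, and its log2-fold change for “0” vs W was 0.55 (SE 0.27).

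Tapbp, tapasin, which holds the empty heavy chain at the transporter, had a log2-fold change of 0.48 (SE 0.21) in KM vs W and 0.34 (SE 0.24) in “0” vs W. Calr, the chaperone calreticulin, had -0.28 (SE 0.12) and 0.04 (SE 0.13). Neither was called in any comparison at an unadjusted p under 0.05, and 0 of the 3 genes were called in KM vs “0” or “0” vs W by edgeR or by DESeq2. Of all genes tested, 2.37% were called higher and 1.29% lower in KM vs “0”, and 3.26% and 3.43% in “0” vs W. A count of 0 of 3 is near these shares. B2m, Tap2, Psmb8, Psmb9, Psmb10, Nlrc5, Irf1, Pirb and Cd74 were not analysed here, nor was any of the 15 receptors and partners of class I molecules.

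Regulators of class I gave 4 genes of 27 with a symbol. Ifngr2, a chain of the interferon gamma receptor, fell by 0.46 (SE 0.12) in KM vs W. Stat2 and Irf9, which act together in the response to type I interferon, rose by 0.52 (SE 0.14) and 0.51 (SE 0.22) in KM vs “0”. None of the 4 was called in “0” vs W, and Nfkb1, a kappaB-binding factor, was called in no comparison. Of all genes tested, 5.33% were called lower in KM vs W and 2.37% higher in KM vs “0”. In “0” vs W 3.26% were called higher and 3.43% lower, and no call among 4 genes is near these shares. Hfe, a class I-like protein of iron control, rose by 1.33 (SE 0.56) in KM vs W and by 0.90 (SE 0.22) in “0” vs W. In KM 3 Hfe was at 10.7 CPM, against 1.78 and 2.54 in the other KM rats, and without KM 3 its change for KM vs W was 0.12.

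Of 43 interferon-response genes, 23 had a symbol. In KM vs W, 17 of 23 were higher and 1, Ifit1, was lower, beside 5.58% and 5.33% of all genes tested. In KM vs “0”, 12 of 22 were higher and 0 lower, beside 2.37% and 1.29%. In “0” vs W, 1 was higher and 4 were lower, beside 3.26% and 3.43%. The median log2-fold change of the list was 0.57, 0.66 and -0.01, against 0.01, 0.01 and -0.01 over all genes tested. Since the list was named through comparisons with KM, fewer calls and a smaller median in “0” vs W follow in part from the naming.

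Irf7, an interferon-induced transcription factor, was at 19.0, 24.8 and 13.8 CPM in KM 1 to KM 3, at 4.93, 6.35, 4.74 and 4.75 CPM in “0” 1 to “0” 4 and at 5.13, 7.19, 17.0 and 8.57 CPM in W 1 to W 4. It rose by 1.90 (SE 0.25) in KM vs “0” and by 1.03 (SE 0.39) in KM vs W, and fell by 0.87 (SE 0.34) in “0” vs W. Usp18, a brake on interferon signalling, rose by 1.36 (SE 0.23) in KM vs “0” and by 1.06 (SE 0.36) in KM vs W. W 3, the W rat with the most Irf7, also had the most RT1-A1 (23.4 CPM) and RT1-A2 (28.5 CPM) of its strain. W 1, the W rat with the least Irf7 (5.13 CPM), had nearly as much RT1-A1 (23.0 CPM) and 24.7 CPM of RT1-A2. The “0” rats combined low Irf7 with high RT1-A1, and a link between Irf7 and the members was not tested.

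The rest of the list followed in the same comparisons. Called higher in KM against both other strains were Bst2 (1.15 vs W and 0.85 vs “0” on the log2 scale), Dhx58 (0.57 and 0.52), Helz2 (0.76 and 1.33), Ifit3 (1.25 and 1.44) and Lgals3bp (1.02 and 1.30). Lgals3bp was at 92.8 CPM in KM 3, the rat with the high choroid plexus markers, against 22.5 and 34.1 CPM in the other KM rats and 20.5 to 27.3 CPM in W. Against W alone the test called Eif2ak2 (0.65), Ifi27 (0.32), Ifi35 (0.52), Ifit2 (0.62), Igtp (0.49), Mx1 (1.41), Parp14 (0.60), Sp110 (0.53), Trim21 (0.53) and Trim25 (0.54). Against “0” alone it called Mx2 (0.89), Oas1a (0.94), Parp9 (0.75), Rsad2 (0.73) and Rtp4 (1.006). That a gene was called in 1 comparison and not in another was not tested as a difference.

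In “0” vs W, Mx1 was higher by 1.33, and Irf7, Mx2, Rsad2 and Ifit1 were lower. Mx2 fell by 1.35 and Rsad2 by 1.40 on the log2 scale. Ifit1 had 0 counts in all “0” rats and in KM 1 and KM 2, at most 0.059 CPM in KM 3, and 2.88, 3.83, 6.60 and 0 CPM in W 1 to W 4, so no fold is given.

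Markers of other cells were set beside the members. Of 12 endothelial markers 5 had a symbol, and all 5 (Abcb1a, Emcn, Flt1, Kdr and Tek) were higher in KM vs W and 4 of them in “0” vs W, beside 5.58% and 3.26% of all genes tested. They summed to 225 to 240 CPM in KM, 198 to 244 CPM in “0” and 154 to 186 CPM in W. Every KM and “0” rat thus lay above every W rat, as for RT1-A1 but over a far smaller span. The 5 were named through a table that lists nearly only differing genes, and the rest of the 12 were not examined. Their calls and the separation of their sums therefore follow at least in part from the naming. For microglia 3 of 14 markers had a symbol (C1qc, Ptprc and Tmem119), with sums of 40.1 to 47.8 CPM in KM, 34.4 to 50.1 CPM in “0” and 37.7 to 46.5 CPM in W that overlapped in all strains. Of these, 2 were higher and 1 was lower in KM vs W, beside 5.58% and 5.33% of all genes tested, and none was called in the other comparisons by edgeR at an unadjusted p under 0.05. In bulk tissue more cells of a type and more RNA per cell cannot be told apart, and the part of these cells in the levels of RT1-A1 and RT1-A2 was not tested.

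Of 12 T and NK cell markers only Lck had a symbol, and it was lower in KM than in both other strains, at 0.567 to 1.25 CPM in KM, 1.27 to 4.52 CPM in “0” and 1.79 to 4.29 CPM in W. Erythrocyte markers (5 of 10 with a symbol) summed to 1395 to 2672 CPM in KM, 1114 to 1721 CPM in “0” and 2501 to 6631 CPM in W, with medians of 2602, 1465 and 3520 CPM, and their part in the RT1-A2 level was not tested. Astrocyte and oligodendrocyte markers (3 of 8) summed to 6138 to 6787 CPM in KM, 4268 to 6051 CPM in “0” and 4476 to 6122 CPM in W. Syn1 stood for 8 neuron markers at 309 to 428 CPM in KM, 316 to 591 CPM in “0” and 510 to 602 CPM in W.

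The tissue could be checked only in part, since Pou4f1, a transcription factor of the tectum, was the only one of 10 markers of the midbrain tectum with a symbol and lay at 0.0810 to 2.76 CPM. None of 10 markers of other brain regions had one.

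The genes around RT1-A1 and RT1-A2 were examined because linked genes come with the same haplotype. RefSeq (GRCr8) lists 52 genes within 25 places of either gene, 7 of them with a symbol in the table of the study. Of these, 5 were higher in KM vs W (RT1-Bb, Tap1, Ring1, Vps52 and Wdr46) and 1 was lower (Rps18), beside 5.58% and 5.33% of all genes tested. The table of the study lists nearly only genes found to differ, and the rest of the 52 were not examined. A high share of calls among the 7 therefore follows from the naming and says little about the region. In “0” vs W 3 were higher (Ring1, Vps52 and Wdr46), beside 3.26%. In KM vs “0” 0 of 7 were called at an unadjusted p under 0.05 by edgeR or by DESeq2. Of all genes tested there by edgeR, 2.37% were called higher and 1.29% lower, and 0 of 7 is near these shares.

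Vps52, a subunit of a vesicle tethering complex, is the next gene to RT1-A1 in this order. It was at 130, 112 and 85.5 CPM in KM 1 to KM 3, at 115, 104, 116 and 119 CPM in “0” 1 to “0” 4 and at 72.8, 72.4, 73.9 and 100 CPM in W 1 to W 4. Its log2-fold change was 0.46 (SE 0.18) in KM vs W and 0.50 (SE 0.13) in “0” vs W, far below that of RT1-A1. Wdr46, a factor of ribosome assembly, rose by 0.52 (SE 0.13) and 0.50 (SE 0.19) in the same comparisons and Ring1, a Polycomb protein, by 0.29 (SE 0.12) and 0.33 (SE 0.13).

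RT1-Bb, the beta chain of a class II molecule and the only one of 11 class II genes with a symbol, rose by 0.92 (SE 0.38) in KM vs W, and Rps18, a ribosomal protein, fell by 0.43 (SE 0.18). RT1-Bb was at 8.91 CPM in “0” 2 and at 1.83 to 2.21 CPM in the other “0” rats. Without W 1 the neighbours called in KM vs W were 3, and without W 2 they were 2. In “0” vs W the neighbour called was 1 without W 2 and 1 without “0” 4. The median change of the 7 was 0.48 in KM vs W, 0.50 in “0” vs W and 0.01 in KM vs “0”.

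The genes with the pattern most like that of the members were found by Pearson r of log2 CPM over the 11 rats among 13679 genes, naming those with a symbol. Since the W rats stand apart from the others in both members, r mainly ranks genes by that division. For RT1-A1 the most similar were Prss35 (r = 0.96), Cdnf (0.96) and Ngfr (0.96) and the most opposite Ccdc77 (-0.96), RGD1309730 (-0.93) and Pcdha4 (-0.93). In all, 20 genes had r above 0.9 and 8 below -0.9.

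For RT1-A2 the most similar were RGD1309730 (0.97), Cfap77 (0.92) and Phf13 (0.92) and the most opposite AABR07000733.1 (-0.95), Aldh16a1 (-0.95) and Rpl30l1 (-0.94). For the log2 ratio of RT1-A1 to RT1-A2 they were AABR07000733.1 (0.97), Rpl30l1 (0.97) and Cdnf (0.95), and on the opposite side RGD1309730 (-0.97), Ccdc77 (-0.95) and Phf13 (-0.94).

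Some of these genes were close to all or none between W and the other strains. Rpl30l1, a ribosomal protein gene copy, had 0 counts in all 4 W rats, against 1.94 to 2.85 CPM in KM and 2.46 to 5.17 CPM in “0”. AABR07000733.1 had 0 or 1 count in each W rat, against 4.27 to 5.49 CPM in KM and 2.93 to 4.30 CPM in “0”. RGD1309730 was at 11.7 to 19.6 CPM in W and at 3.97 to 6.84 CPM in the other strains. When genes were ranked by their deviations from the strain means, 0 of the 6 named genes for RT1-A1, 0 of the 6 for RT1-A2 and 0 of the 6 for the ratio were named again.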

How the data were processed

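The authors trimmed 75-bp single-end reads with Trimmomatic, mapped them with STAR to Rnor_6.0 and assigned them to genes with HTSeq-count. Versions, annotation and the strand setting are not given in the sources used here. The authors deposited 1 table of counts per rat, whole reads per gene without normalization. The 12 summary lines were left out and 32883 genes kept. Groups came from the sample titles.

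Counts were scaled with TMM factors. Each pair of strains was fitted on its own rats with the original quasi-likelihood F-test of edgeR 4.0.16 (R 4.3.3, limma 3.58.1), leaving out genes whose CPM averaged under 1. An unadjusted p under 0.05 was the call, as in the study, with Benjamini-Hochberg values beside it. Log2 CPM had a prior count of 2. DESeq2 1.42.0, other filters, a joint fit, a replicate block and leaving out each rat were the alternatives. The procedure was tested on simulated data. No label names a litter or batch. The p-values set a strain difference against the spread between these rats, estimated with information from all genes tested.

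Symbols came from a supplementary table of the study that names 1763 identifiers, nearly all listed there as differing. Its fold changes and p-values were not used. Named genes were RT1-A1 and RT1-A2, class I genes, called members of the lists, a few fixed symbols, called neighbours and the 3 most similar and 3 most opposite genes by r. The members and lists were chosen with earlier results of these data known.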

Additional observations from a re-analysis of the deposited data

Results flagged for a closer look

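Among 34 strain groups of 4 rats that were examined for a single distant rat by Dixon's test, 2 held one, where chance gives about 1 in 20. RT1-CE5, a class I gene, was at 16.5 CPM in “0” 4, against 7.87 to 8.67 CPM in the other “0” rats. Irf7 was at 6.35 CPM in “0” 2, against 4.74 to 4.93 CPM in the other “0” rats.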

How the results depend on the processing

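The log2-fold changes of RT1-A1 and RT1-A2 in KM vs W and “0” vs W kept their direction under every alternative run. For single genes other than these, 413 alternatives of 31 results gave 329 calls kept, 84 lost and 0 reversed. Without a filter on low counts, 2 processing genes were called in KM vs W and 777 genes in all in KM vs “0”, against 500. DESeq2's Wald test also called 2 processing genes in KM vs W. With 1 fit of all 11 rats, 3 neighbours were called in KM vs W and 1 processing gene in KM vs “0”. Within 100 places of the members, 17 of 202 listed genes had a symbol, and 3 were called in KM vs “0”, 6 in “0” vs W and 14 in KM vs W. Over all genes tested, 2.37% were called higher and 1.29% lower in KM vs “0”. In “0” vs W the shares were 3.26% and 3.43%, and in KM vs W 5.58% and 5.33%. The 17 were named through the study's table of mostly differing genes, so these counts follow in part from the naming. Of the 6 genes named as most like RT1-A1, RT1-A2 and their ratio, Spearman's rho kept 0, 0 and 1, and deviations from the strain means 0 of each. The cause of these differences was not tested.

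With each rat left out in turn, other class I genes called ranged from 3 to 6 in “0” vs W, from 3 to 7 in KM vs W and from 2 to 4 in KM vs “0”. Processing genes ranged from 1 to 2 in KM vs W and from 0 to 1 in “0” vs W. Neighbours ranged from 1 to 3, from 2 to 5 and from 0 to 1 in the same order of comparisons as the class I genes, and all genes called from 954 to 1831 in KM vs W and from 280 (without “0” 3) to 921 (without KM 3) in KM vs “0”. The most like genes ranged from 2 to 5 for RT1-A1, from 2 to 6 for RT1-A2 and from 3 to 6 for the ratio.

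Whether the replicate numbers pair the rats was not settled, since same-numbered rats were not compared with differently numbered ones. The correlation of same-numbered deviations averaged 0.12 in KM vs “0”, 0.01 in “0” vs W and -0.05 in KM vs W, and was at most 0.52 and at least -0.58 for a pair of rats. With a replicate block, 781 genes were called in KM vs “0”, 804 in “0” vs W and 1527 in KM vs W, and the change of RT1-A1 was 0.11, 2.46 and 2.48 in the same order. Exon lengths were not used here, so the alternative of shares per exon length was not run.

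RT1-A2 rested on 46 to 78 counts per rat in KM and “0”, and RT1-T24-1 and AABR07044364.1 on as few as 7 counts in a rat, which limits the precision of their values.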
